A study of Mus musculus with 2 samples.

Results

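The UBE2 genes mostly encode E2 ubiquitin-conjugating enzymes, and their transcript levels were described in mouse erythroid progenitor cells. Members were all genes annotated as protein-coding in GENCODE on mm10 whose symbol starts with Ube2. This rule uses no measured value and took 37 genes with 157 transcripts, out of 42462 annotated Ensembl genes in the tables, of which 21461 were nuclear and protein-coding. Total RNA had been sequenced from primary cells labelled CFU-Ery. They came from C57BL/6J mice that were male and 5 to 6 weeks old, and the title of a linked isolation protocol names bone marrow. The study holds 1 group of 2 libraries, numbered 1 and 2 as biological replicates. Each library started from 1 ng of RNA, to which spike-in transcripts were added. No treatment, transgene or genotype other than the strain is named, and the title of another linked protocol refers to pools of cells. Their donor record is shared although their biosamples are separate, and the spread between them may therefore be technical. With no second group there is no contrast to test, and an exact two-sided sign-flip test over 2 libraries cannot go below p = 0.5. Values are therefore given for each library, with the mean ± SD (n = 2).

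An E2 enzyme receives activated ubiquitin from an E1 enzyme and, usually together with an E3 ligase that picks the substrate, passes it to a lysine of a target protein or of another ubiquitin. Some members carry a ubiquitin-like protein instead, such as NEDD8 or ISG15. Red cell precursors divide rapidly and later clear organelles and most other proteins, and ubiquitin conjugation is known to take part in both.

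Reads of close relatives can be hard to tell apart, so the start of the coding sequence is shown for 3 members of the UBE2D group, the broad-range E2 enzymes with the most similar members. The first 60 coding bases are from the GENCODE M21 transcripts on GRCm38, with bases that differ from Ube2d3 in capitals. Ube2d3 (chr3:135439775-135455221, + strand) and Ube2d1 (chr10:71262227-71285124, - strand) are interrupted by an intron in this stretch, and Ube2d2b (chr5:107830485-107830544, + strand) is not.
Ube2d3: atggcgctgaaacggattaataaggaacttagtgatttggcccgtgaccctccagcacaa
Ube2d2b: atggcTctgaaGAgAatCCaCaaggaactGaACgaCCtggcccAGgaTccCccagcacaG
Ube2d1: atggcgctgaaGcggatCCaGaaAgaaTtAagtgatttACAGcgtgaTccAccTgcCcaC
In these stretches Ube2d2b differed from Ube2d3 at 17 bases and Ube2d1 at 16. Over the 441 coding bases before the stop codon, identity to Ube2d3 was 86.4% for Ube2d2a, 83.0% for Ube2d2b and 77.3% for Ube2d1. The closest of these relatives were Ube2d2a and Ube2d2b, with 92.7% identity and a longest identical run of 32 bases. Ube2d3 and Ube2d2a shared a run of 42 bases, and Ube2d1 shared no run over 20 bases with any of the other three. A read longer than these runs meets at least 1 difference between these 4 genes within the coding sequence.

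The gene table of replicate 1 summed to 143491647 expected counts and that of replicate 2 to 110634458. Mitochondrial rRNA held 81.2% and 79.0% of it, and nuclear protein-coding genes held 3.29% and 3.70%. A deposited TPM of 1 becomes 43.1 and 37.0 TPM when TPM, a level per length, is rescaled so that nuclear protein-coding genes sum to 1000000, and this second scale is named wherever it is used. All 9 erythroid markers were at or above 1 TPM in both libraries, with a summed level of 3727 and 4345 TPM. Most of that sum lay in the globin genes Hbb-bs (2287 and 2623 TPM) and Hba-a1 (1122 and 1353 TPM). The medians were alike, at 58.4 and 62.4 TPM over the erythroid markers and 56.4 and 67.5 TPM over the granulocyte markers. All 6 granulocyte markers were also above 1 TPM, with a summed level of 476 and 645 TPM, and so were 3 of 5 macrophage, 2 of 4 B cell and 1 of 4 T and NK cell markers (summed levels of 8.76 and 11.4, 5.78 and 5.68, and 2.48 and 2.75 TPM). The T cell marker Cd8a was at 0 counts, and no megakaryocyte or stromal marker reached 1 TPM in both libraries. What these cells add to the UBE2 levels was not tested, and in bulk RNA fewer cells of a type and less RNA per cell cannot be told apart.

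Of the 37 UBE2 members, 17 were at or above 1 TPM in both libraries, against 12.6% of nuclear protein-coding genes. On the rescaled scale 31 of 37 were at or above 1 in both, against 44.6%. A further 3 members, Ube2j1, Ube2v2 and Ube2j2, reached 1 TPM in 1 library only, and 12 had counts but stayed below 1 TPM in both. The remaining 5 members, Ube2e2, Ube2u, Ube2ql1, Ube2dnl1 and Ube2dnl2, had 0 counts in both libraries. A count of 0 allows up to 3 counts, which for these 5 genes is at most 0.0374 TPM in replicate 1 and 0.0481 TPM in replicate 2 (counting error only). The family median was 1.09 TPM in replicate 1 and 0.91 TPM in replicate 2, beside 0.01 and 0.02 TPM over all nuclear protein-coding genes.

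The summed level of the family was 102 TPM in replicate 1 and 121 TPM in replicate 2, or 0.441% and 0.449% of the TPM of nuclear protein-coding genes. It rested on few genes, with 60.7% and 63.8% of it in the 5 highest members, led by Ube2c, Ube2s and Ube2l6. In the order of mean TPM, Ube2c, Ube2s and Ube2l6 stood apart from their neighbours, with no overlap between the libraries' ranges. Further down, the ranges were also separate between Ube2v1 and Ube2e3, Ube2l3 and Ube2n, Ube2w and Ube2q2, and Ube2q2 and Ube2g2. The other 23 of all 30 neighbouring pairs had overlapping ranges.

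**Figure D1:**
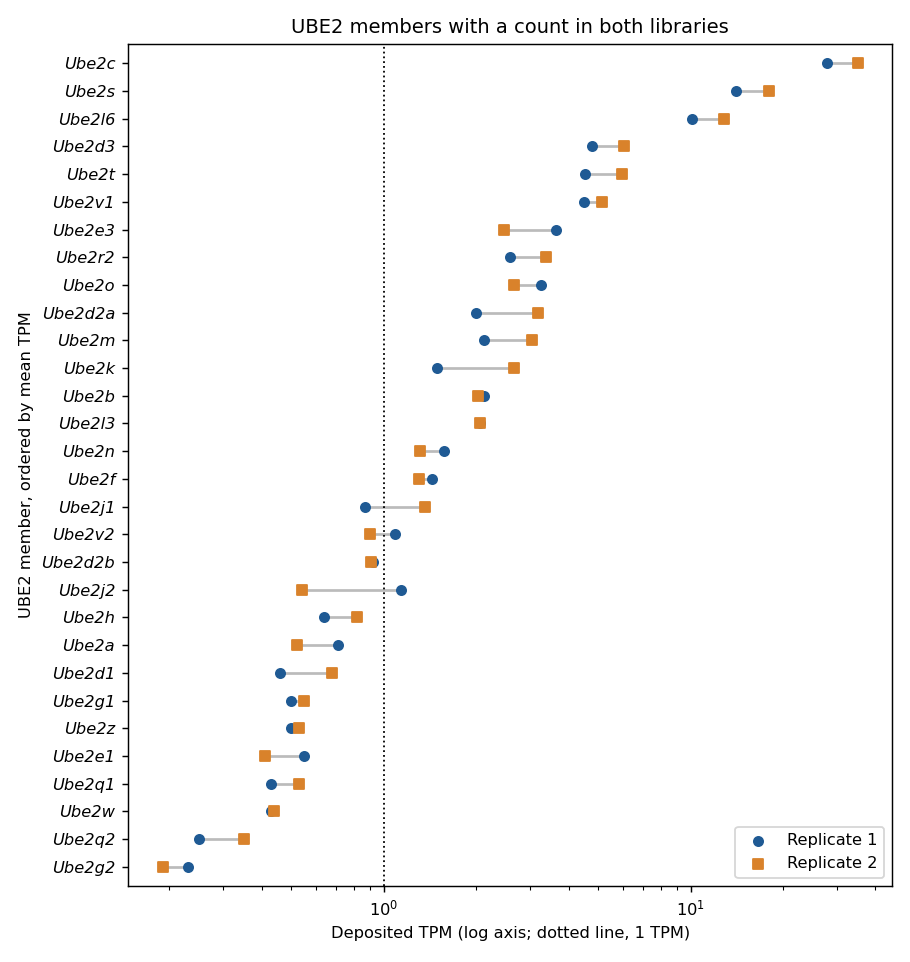
Deposited TPM (log axis) of 30 of the 31 UBE2 members with a count in both libraries (1 is not drawn), ordered by mean TPM, with a circle for replicate 1 and a square for replicate 2. Ube2c leads at 27.8 and 35.0 TPM, followed by Ube2s and Ube2l6, and most members below them overlap with the next in order.

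The E2 enzymes of the anaphase-promoting complex (APC/C), the ligase that drives exit from mitosis, were the most abundant. Ube2c, which attaches the first ubiquitins to APC/C substrates, was at 27.8 TPM in replicate 1 and 35.0 in replicate 2 (31.4 ± 5.11, SD, n = 2). Ube2s, which extends those chains, was at 14.1 and 18.0 TPM (16.0 ± 2.75, SD, n = 2). Both were higher in replicate 2 on the deposited scale, and together they held 41.0% and 43.7% of the family's TPM. The ratio of Ube2c to Ube2s was nearly the same in both libraries, at 1.98-fold (log2 0.98, 95% counting interval 0.89 to 1.08) and 1.95-fold (log2 0.96, 0.87 to 1.06). Ube2c lies at chr2:164769898-164778822 on the + strand and Ube2s at chr7:4794546-4812590 on the - strand. Of the exonic bases of Ube2s, 183 also lie in exons of the ribosomal protein gene Rpl28 on the opposite strand (25.6 and 33.0 TPM), and whether the counting used strand is not given in the sources used here.

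Transcript levels of the genes of the complex itself were lower. Of 16 APC/C subunits and activators, 10 were at or above 1 TPM in both libraries, with a median of 1.31 and 1.495 TPM. The activator Fzr1 (Cdh1) was highest at 5.59 and 6.82 TPM, followed by the subunit Anapc5 at 3.02 and 3.92 and the mitotic activator Cdc20 at 3.03 and 3.78. Anapc10, a substrate-binding subunit, was lowest at 0.19 and 0.20 TPM. Each of these was below Ube2s and Ube2c in both libraries.

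Members that carry ubiquitin-like proteins were also expressed. Ube2l6, the E2 enzyme for ISG15, an interferon-induced modifier, was the third most abundant member at 10.1 and 12.9 TPM (11.5 ± 1.95, SD, n = 2). It was 4.89-fold and 6.25-fold above its relative Ube2l3, which passes ubiquitin to HECT and RBR ligases such as Arih1 and stood at 2.06 TPM in both libraries. Ube2m and Ube2f, the E2 enzymes for NEDD8, were lower, at 2.12 and 3.05 TPM for Ube2m and at 1.44 and 1.30 TPM for Ube2f. Ube2m exceeded Ube2f 1.47-fold in replicate 1 and 2.36-fold in replicate 2, with counting intervals that did not overlap (log2 0.27 to 0.84 and 0.92 to 1.55).

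Of 9 genes for E1 enzymes, which load the E2 enzymes, 4 were at or above 1 TPM in both libraries. Uba7, the E1 enzyme for ISG15, led at 9.62 and 10.1 TPM, and Uba2, a subunit of the SUMO E1, followed at 2.73 and 1.78 TPM. Uba1, the main ubiquitin E1, was at 1.43 and 1.68 TPM, below Uba7 in both libraries. Of 11 ubiquitin and ubiquitin-like genes, 8 reached 1 TPM in both libraries. Ubb (17.2 and 21.5 TPM) and Rps27a (14.5 and 14.4), which encode ubiquitin itself, were among the 3 highest, and Sumo3 was lowest (0.22 and 0.42). The modifier Isg15, named after its values were seen, was at 2.42 TPM in replicate 1 and 0.91 in replicate 2 and lay below Ube2l6 and Uba7 in each library. Its ligase Herc6, also named after its values were seen, was at 0.73 and 0.53 TPM.

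**Figure D2:**
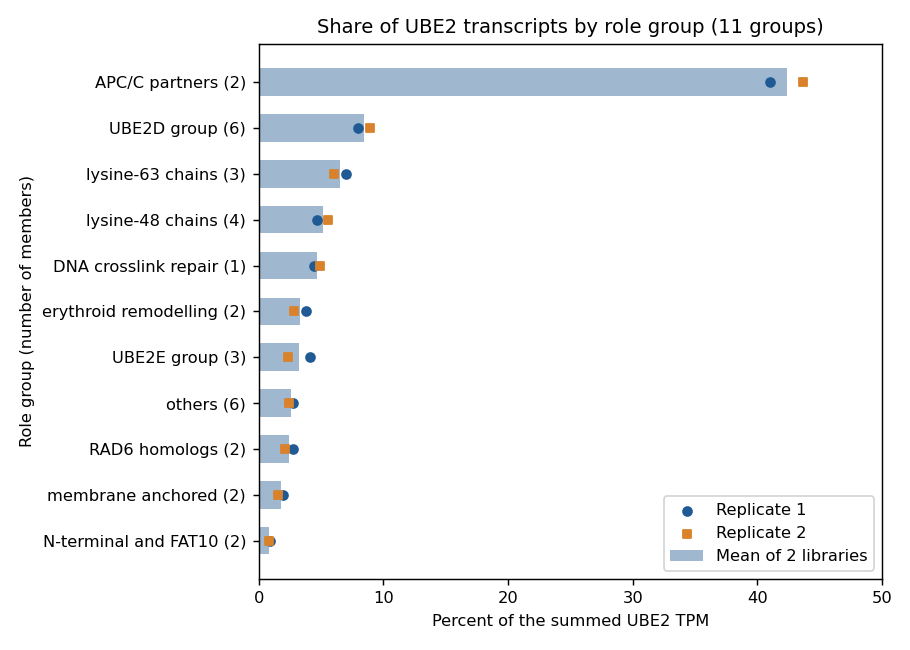
Percent of the summed UBE2 TPM held by 11 role groups, with bars for the mean of 2 libraries and points for each library. The 2 APC/C partners held 41.0% and 43.7%, and the 6 genes of the UBE2D group held 7.99% and 8.95%. The group of carriers of ubiquitin-like proteins, whose share lies between these, is not drawn.

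In the UBE2D group, which works with many RING-type ligases, 2 of 6 genes were at or above 1 TPM in both libraries. Ube2d3 was highest at 4.78 and 6.07 TPM (5.43 ± 0.912, SD, n = 2), and Ube2d2a followed at 2.00 and 3.19 TPM. Ube2d2b was at 0.92 and 0.91 TPM and Ube2d1 at 0.46 and 0.68. The order of these 4 genes was the same in both libraries, and Ube2d3 was 10.4-fold and 8.90-fold above Ube2d1. The ratio of Ube2d3 to Ube2d2a was 2.39-fold and 1.90-fold, and its counting intervals did not overlap between the libraries (log2 1.12 to 1.40 and 0.79 to 1.06). Ube2d3 and Ube2d2a had fractional counts, which mark reads divided between genes, while Ube2d1 and Ube2d2b had whole counts. The processed pseudogene Gm9762 was given 48.9 and 16.4 counts, beside 620 and 773 for Ube2d2a. It shares 3.62% of the 11618 25-base words in all GENCODE M21 transcripts of Ube2d2a. The counts were made on GENCODE M4, where Ube2d2a-202, of 2483 bases, holds all of the gene's TPM. The share may therefore understate the overlap with the counted sequence.

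Within the UBE2E group, 1 paralog carried most of the transcripts. Ube2e3 was at 3.65 and 2.46 TPM (3.06 ± 0.841, SD, n = 2), 6.64-fold and 5.98-fold above Ube2e1, which stood at 0.55 and 0.41 TPM. Ube2e2 had no count, which puts Ube2e3 at least 103-fold higher in replicate 1 and at least 53.8-fold higher in replicate 2 against a floor of 3 counts per library. The deposited posterior mean nonetheless lists Ube2e2 at 0.26 and 0.33 TPM, so this alternative estimate is not 0 for a gene of 14 transcripts without a count.

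Of the 4 members known for chains linked through K48, the usual signal for the proteasome, 2 were at or above 1 TPM in both libraries. Ube2r2, a relative of Cdc34 that serves cullin-RING ligases, was at 2.58 and 3.37 TPM, which was 2.95-fold and 3.63-fold above Cdc34 at 0.88 and 0.93. These are gene totals. The coding Ube2r2-201 alone was at 1.59 and 1.43 TPM, and retained-intron transcripts held the rest of Ube2r2. Ube2k was at 1.49 and 2.66 TPM, and its libraries were far apart although its counts were 302 and 272. The effective length behind these values was 1528 bases in replicate 1 and 988 in replicate 2, since the table gives its reads to transcripts of different length in the 2 libraries. Ube2g1 (0.50 and 0.55 TPM) and Ube2g2 (0.23 and 0.19), the latter known from degradation at the endoplasmic reticulum, were below 1 TPM in both libraries.

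For chains linked through K63, which signal in DNA repair and inflammation, Ube2n is the catalytic subunit and needs Ube2v1 or Ube2v2, which lack the active-site cysteine. Ube2v1 was at 4.49 and 5.15 TPM (4.82 ± 0.467, SD, n = 2), Ube2n at 1.57 and 1.31 and Ube2v2 at 1.09 and 0.90. Ube2v1 exceeded the catalytic subunit 2.86-fold and 3.94-fold, and exceeded Ube2v2 4.11-fold and 5.74-fold. Ube2n was 1.44-fold and 1.46-fold above Ube2v2. Ube2v1 shares 61.5% of its exonic bases with Gm20431, a gene on the same strand listed at 0 TPM, and had fractional counts.

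Among members tied to DNA repair, Ube2t, which serves the Fanconi anaemia pathway with the ligase Fancl, was highest at 4.53 and 5.97 TPM (5.25 ± 1.02, SD, n = 2). This level rests on a short transcript: Ube2t-204, of 437 bases that all lie in exons of the longer Ube2t-201, held 71.2% and 65.6% of the gene's TPM with 31.3% and 26.2% of its counts. The 3244-base Ube2t-203, a retained-intron transcript, held more of the counts, 43.2% and 45.2%. The RAD6 homologs Ube2a and Ube2b, which modify histone H2B and, with the ligase Rad18, PCNA, were unequal. Ube2b was at 2.12 and 2.02 TPM and Ube2a at 0.71 and 0.52, so that Ube2b was 3.00-fold and 3.88-fold higher.

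The 2 members best known from the remodelling of maturing red cells differed in level as gene totals. Ube2o, a large enzyme that acts as both E2 and E3 and clears ribosomal proteins in reticulocytes, was at 3.26 and 2.65 TPM (2.96 ± 0.431, SD, n = 2). Ube2h, the E2 enzyme of the CTLH ligase, was at 0.64 and 0.82 TPM (0.73 ± 0.127, SD, n = 2) with 382 counts in each library. All of it was the coding Ube2h-202, whereas the coding Ube2o-201 alone was at 0.43 and 0.85 TPM. Processed transcripts held the rest of Ube2o. Among them Ube2o-203, of 461 bases, held 35.1% and 8.97% of the gene's TPM with 4.47% and 0.79% of its counts. Of the 11 CTLH subunits, 6 were at or above 1 TPM in both libraries, with a median of 1.39 and 1.83 TPM. Wdr26 was highest at 8.87 and 9.49 TPM, followed by Ranbp10 at 6.61 and 7.20 and Gid8 at 4.64 and 5.35, and Gid4, a substrate receptor, was lowest at 0.30 and 0.19. Wdr26, Ranbp10 and Gid8 were thus well above their E2 partner in both libraries. Of the GENCODE M21 sequence of Ube2h, 52.2% of 25-base words also occur in the lincRNA Gm26526, which was listed at 0 and 0.05 TPM.

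The remaining members were low. Ube2j1 and Ube2j2, which are anchored in the membrane of the endoplasmic reticulum, were at 0.87 and 1.36 TPM and at 1.14 and 0.54 TPM. Their order changed between the libraries, since Ube2j2 was 1.30-fold higher in replicate 1 (log2 0.38, counting interval 0.16 to 0.60) and 2.52-fold lower in replicate 2 (log2 -1.33, -1.62 to -1.06). By expected counts, without length scaling, Ube2j2 was the lower in both libraries, with 305 beside 383 and 144 beside 463. Ube2w, which modifies protein N-termini, was at 0.43 and 0.44 TPM and Ube2z, which accepts FAT10 and ubiquitin from Uba6, at 0.50 and 0.53. Ube2q1 was at 0.43 and 0.53 TPM and Ube2q2 at 0.25 and 0.35. Ube2cbp, which encodes a UBE2C-binding protein and not an E2 enzyme, is a member by its symbol only. It had 14 counts in replicate 1 and 0 in replicate 2.

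Levels within related or partner pairs were compared for 18 pairs, of which 17 had counts on both sides. In 9 pairs the members were over 2-fold apart the same way in both libraries, and in 15 both counting intervals lay on the same side of 0. The 2 exceptions were Ube2j2 with Ube2j1, which changed sign, and Ube2h with Ube2e1, whose interval in replicate 1 included 0 (log2 -0.11 to 0.57). In 6 pairs the intervals of the 2 libraries did not overlap, so their spread went beyond counting error.

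**Figure D3:**
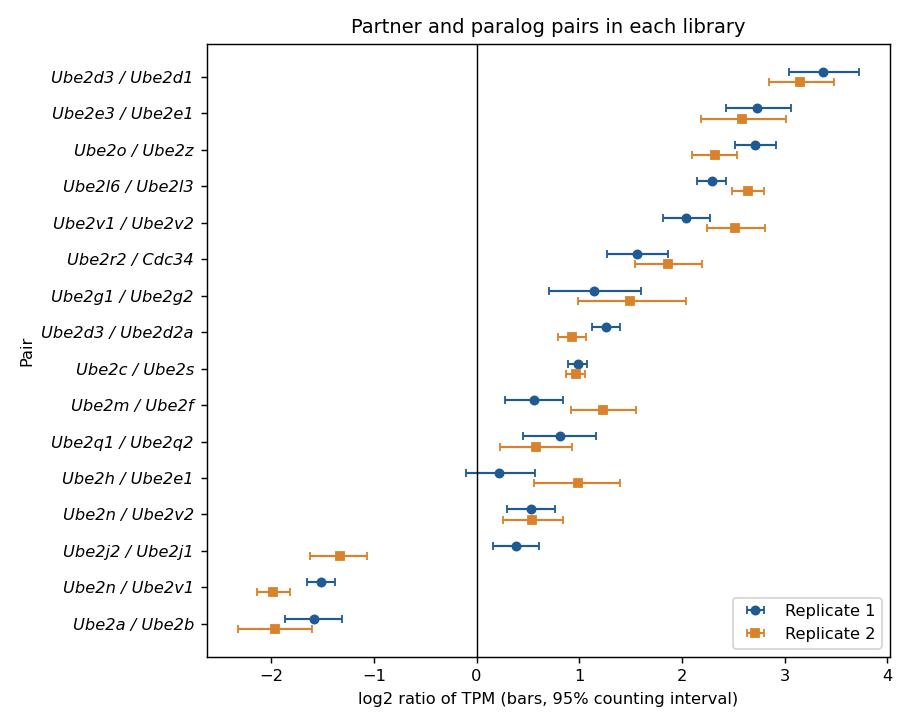
The log2 ratio of TPM within 16 pairs in each library, with bars for the 95% counting interval. Ube2d3 over Ube2d1 was the widest ratio at 3.37 and 3.15, and Ube2j2 over Ube2j1 lay at 0.38 in replicate 1 and -1.33 in replicate 2.

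Outside the family, 9 E2 genes and E2 homologs with other names were measured, and 2 reached 1 TPM in both libraries. Of these, Birc6, a giant E2 that restrains apoptosis, was at 4.35 and 3.80 TPM and Tsg101, an inactive E2 homolog of the sorting machinery, at 1.79 and 1.46. Cdc34 was next by mean TPM, and Cdc34b had 0 counts. Of 15 other ligases that work with UBE2 members, 6 reached 1 TPM in both libraries, led by Huwe1 (2.46 TPM in both), Rnf8 (2.20 and 1.68) and Xiap (2.23 and 1.59).

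Between the libraries, 31 members had a mean expected count of 20 or more, and 0 of them differed by over 2-fold on log2(TPM + 1) after centring, against 0.631% of all 9820 genes past that minimum. The added 1 is large against these TPM values and understates the differences. On log2(rescaled TPM + 1), 1 of 31 members was over 2-fold apart, against 17.8% of genes. That member was Ube2j2, with 305 counts in replicate 1 and 144 in replicate 2. The median size of the difference on this scale was 0.25 for members and 0.40 for all genes past the minimum, and members had more counts, with a median of 374 beside 129. Leaving out the added 1, Ube2j2 was 2.46-fold higher in replicate 1 (log2 1.30, counting interval 1.02 to 1.60).

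After Ube2j2, the members furthest apart in rescaled TPM were Ube2e3, at 157 in replicate 1 and 91.0 in replicate 2 (log2 0.79, counting interval 0.62 to 0.96), Ube2a at 30.6 and 19.2 (log2 0.67, 0.27 to 1.08), Ube2e1 at 23.7 and 15.2 (log2 0.65, 0.15 to 1.15) and Ube2k at 64.3 and 98.4 (log2 -0.61, -0.86 to -0.37). For Ube2e3 the effective length was 1531 bases in replicate 1 and 1915 in replicate 2. Its retained-intron Ube2e3-206, of 537 bases, was at 0.77 deposited TPM in replicate 1 and 0 in replicate 2. The coding Ube2e3-201 was at 2.29 and 2.05 deposited TPM. The most abundant members were close. Ube2c was at 1200 and 1296 rescaled TPM and Ube2l6 at 435 and 476, which is 1.08-fold and 1.09-fold higher in replicate 2. Of the 31 members, 19 were higher in replicate 2 on the deposited scale and 14 on the rescaled scale, so a direction between the libraries depends on the scale for some members.

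**Figure D4:**
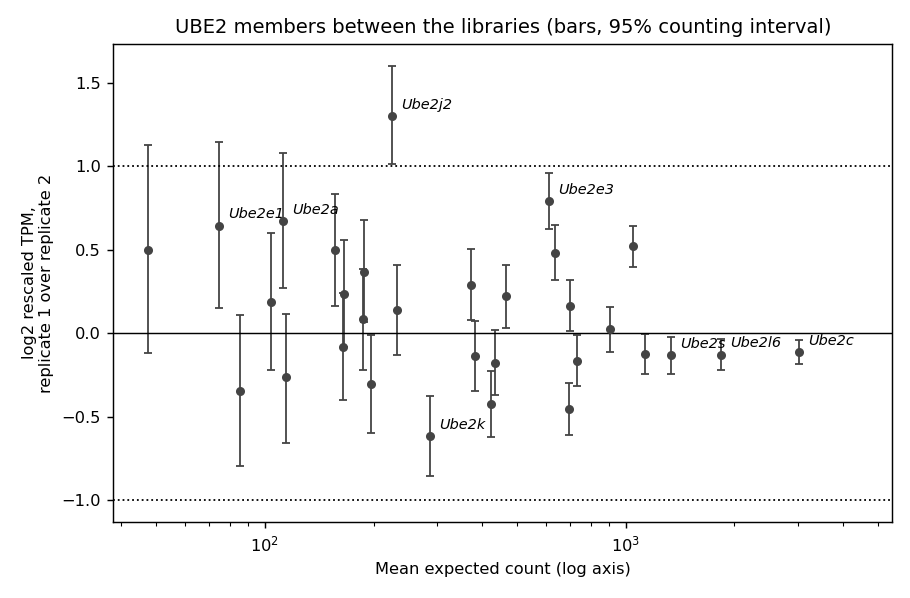
The log2 ratio of rescaled TPM in replicate 1 over replicate 2 against the mean expected count (log axis) for 31 UBE2 members, with bars for the 95% counting interval and dotted lines at 2-fold. Ube2j2 lies beyond 2-fold at 1.30, Ube2e3 and Ube2k lie at 0.79 and -0.61, and Ube2c, Ube2s and Ube2l6 lie close to 0.

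Of the 31 members with TPM in both libraries, 25 have 2 or more transcripts in the tables. The transcript with the highest TPM was the same in both libraries for 20 of them and differed for 5, Ube2d3, Ube2j2, Ube2k, Ube2m and Ube2r2. Transcripts annotated as protein-coding held 88.7% and 90.2% of the family's TPM, beside 75.8% and 77.0% over all nuclear protein-coding genes. Without Ube2c, Ube2s and Ube2l6 the share in the family was 77.0% and 79.7%. By expected counts the difference was smaller, with 89.2% and 90.9% for the family and 86.0% and 86.7% over all nuclear protein-coding genes. Without those 3 members the family's share of counts, 83.4% and 85.7%, was below that over all genes. Ube2c-202 and the single transcript of Ube2s held 100% of their genes' TPM, and Ube2l6-201 held 97.2% and 95.2%. Ube2v1-202 (59.95% and 69.2%) and Ube2e3-201 (62.8% and 83.2%) were the highest of their genes in both libraries.

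The coding transcripts of Ube2d3 exchanged places. Ube2d3-202 held 55.1% of the gene's TPM in replicate 1 and 27.1% in replicate 2, with 866 and 421 counts, and Ube2d3-201 held 44.9% and 72.9%, with 373 and 599 counts. In GENCODE M21 their coding sequences are identical over 441 bases, and 92.1% of the exonic bases of Ube2d3-201 lie in Ube2d3-202. By these models the exchange concerns untranslated sequence. The M21 model of Ube2d3-201 has 1512 bases, and the transcript that was counted has 1449. In Ube2j2 the coding transcript Ube2j2-203 was first in replicate 1 with 46.2% and held 13.5% in replicate 2, where Ube2j2-201 led with 68.5%.

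In Ube2r2 the highest transcript was the coding Ube2r2-201 in replicate 1 (61.7%, and 42.4% in replicate 2) and the retained-intron Ube2r2-202 in replicate 2 (52.3%, and 17.1% in replicate 1). Ube2r2-202 starts in the intron before exon 4, 264 bases upstream of that exon. The bases that set it apart from the spliced form are shown on both sides of the start of exon 4, at position 41189152 of chromosome 4. Capitals mark exon 4, and both sequences are from the GENCODE M21 transcripts on GRCm38, + strand, at chr4:41183323-41189171 across the splice and at chr4:41189132-41189171 without it.
Ube2r2-201: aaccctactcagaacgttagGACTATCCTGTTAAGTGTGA
Ube2r2-202: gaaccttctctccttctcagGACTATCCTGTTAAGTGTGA
The exon is the same in both, and the 2 forms differ in the lower-case bases before it. By counts the coding transcript led in both libraries, with 728 and 510 for Ube2r2-201 beside 40.5 and 126 for Ube2r2-202. The former has 3600 bases and the latter 831, and TPM is a level per length.

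In Ube2o the highest transcript was not a coding one in either library. Ube2o-202, annotated as a processed transcript, held 51.8% and 59.0% of the gene's TPM, while the coding Ube2o-201 held 13.1% and 32.0%. All 3550 exonic bases of Ube2o-202 lie in exons of Ube2o-201, so that no base is particular to it. In Ube2m the retained-intron Ube2m-205 was highest in replicate 1 (43.6%) and the coding Ube2m-203 in replicate 2 (48.8%), where the former held 30.0%; Ube2m-203 was at 0 in replicate 1. The highest transcripts of Ube2k in the 2 libraries are not in GENCODE M21, so no type is given to them here. The transcript ENSMUST00000131873.3 held 51.6% of its TPM in replicate 1, and ENSMUST00000146799.1 held 33.6% in replicate 2.

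**Figure D5:**
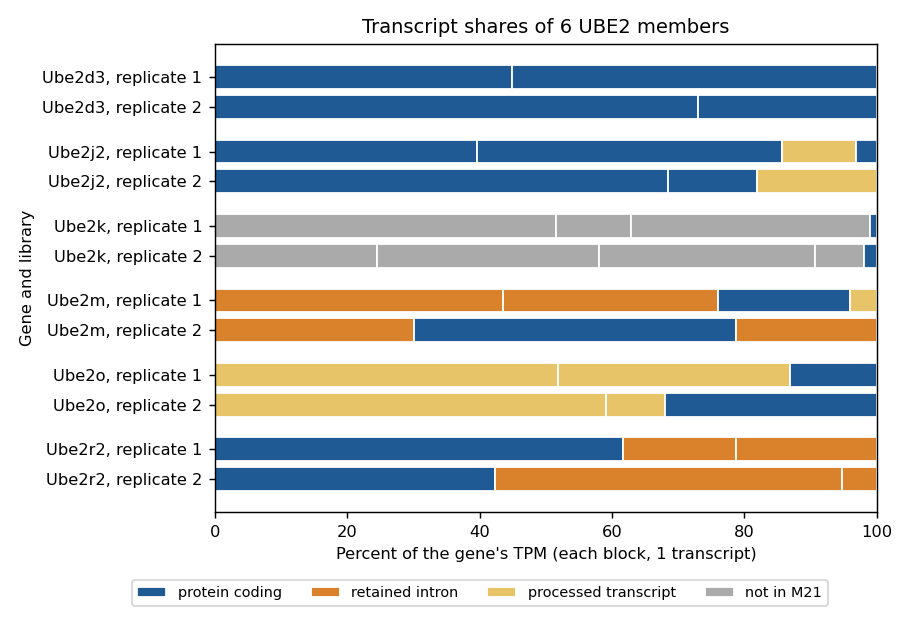
Percent of the gene's TPM held by each transcript (1 block each) of 6 UBE2 members in each library, coloured by the annotated transcript type. Ube2d3 is coding throughout with its transcripts in different proportions, while non-coding types hold most of Ube2o in both libraries and retained-intron transcripts hold much of Ube2m and Ube2r2.

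Reads that fit several genes were a concern for some members. Of the 37 members, 27 had expected counts within 0.005 of a whole number in both libraries and 10 had fractional counts in at least 1. Over their GENCODE M21 transcripts, 5 members shared no 25-base word with another annotated gene on either strand, and 11 shared over 10%. Ube2c, Ube2s, Ube2l6, Ube2t and Ube2e3 had whole counts. Even so, 29.2% of the words of Ube2c and 17.5% of those of Ube2l6 also occur in other genes. For Ube2c, 592 exonic bases also lie in exons of Tnnc2 on the opposite strand, which was listed at 0 and 0.03 TPM. Ube2d3 and Ube2v1, also among the 10 highest members, had fractional counts.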

How the data were processed

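For each of 2 total RNA libraries there was 1 table of genes and 1 of transcripts, which the authors quantified on mm10 with GENCODE M4, per the file headers and descriptions. The aligner, the quantifier, any version and strand use were not given in the sources used here. The deposited expected counts are estimated reads and need not be whole. The deposited TPM values are scaled over all entries of a table, spike-ins and mitochondrial rRNA included, as a maximum likelihood and a posterior mean estimate. Per the file headers, FPKM as deposited is a level per length and depth. The isoform percent in the deposited tables is a transcript's part of its gene's TPM. The deposited bounds of credibility intervals were treated as a score and not used.

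GENCODE M21 on GRCm38 (mm10) gave the names, types and 1-based coordinates, joined by unversioned Ensembl identifier. TPM was also rescaled to a sum of 1000000 over nuclear protein-coding genes. Libraries were called apart at over 2-fold on log2(TPM + 1), centred on the median over genes averaging 20 or more expected counts, which removed -0.05. Within a pair, the counting interval is the exact Clopper-Pearson interval of the rounded counts, shifted by the effective lengths. It covers counting error only, since no molecular identifiers are named. The same interval was used between the libraries of a member. The pseudocount was 1, and a count of 0 was set at 3 counts per library.

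The members, role groups, pairs, pathway and marker lists were chosen with earlier results of these data known. The text gives members at or above 1 TPM in both libraries, the 3 highest and the lowest gene of each pathway list, and the highest transcript of the 10 highest members and of members where it differed between libraries or was not coding; a few genes that this rule takes are not reported here. Of the listed names, Rbx2 and Ighm matched no nuclear protein-coding gene. Rbx2 is another name of Rnf7, which is in the same list and was at 0.80 and 1.19 TPM. Alternatives were the posterior mean, FPKM, rescaled TPM, other minima and pseudocounts, counts scaled by edgeR TMM or DESeq2 size factors, and single libraries. The versions were edgeR 4.0.16 and DESeq2 1.42.0 in R 4.3.3, and scipy 1.17.1, pandas 2.3.3, numpy 2.4.6 and matplotlib 3.10.9 in Python 3.11.15.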

Additional observations from a re-analysis of the deposited data

How the results depend on the processing

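Depth was limited, since nuclear protein-coding genes held under 4% of counts. Members below 1 TPM in both libraries rest on at most 382 counts, but so do some above it. Ube2m, at 2.12 and 3.05 TPM, had 194 and 200 counts. No paired analysis was possible because there is 1 group, and leaving out a library leaves no difference between libraries to compute. With rescaled TPM the number of members at or above 1 in both libraries was 31 in place of 17. The family median was 1.43 TPM over members averaging 20 or more expected counts, in place of 1.00. With a pseudocount of 0.1, and with rescaled TPM, 1 member (Ube2j2) was over 2-fold apart in place of 0, against 10.3% and 17.8% of all genes. With edgeR TMM or DESeq2 size factors it was 0, against 18.1% of genes. By expected counts the 5 highest members held 49.1%, in place of 62.3% of TPM. With a single library, 18 to 19 members were at or above 1 TPM, the median was 0.91 to 1.09 TPM, the 5 highest members held 60.7% to 63.8%, 11 pairs were over 2-fold apart in place of 9, and the median percent of a gene's TPM in its highest transcript was 71.2% to 83.2%, in place of 73.2%. The posterior mean, chosen for member levels after seeing the data, moved 4 of 17 mean TPM values by more than the SD, and it moved 14 of 25 isoform percents and 4 of 17 pair ratios. Expected counts moved 14 of 17 pair ratios, among them Ube2n to Ube2v1 from log2 -1.75 to -0.54. The mean ratio changed sign in no pair with 1 direction in both libraries, but by counts Ube2m was below Ube2f in replicate 1 (194 and 226) and above it in replicate 2 (200 and 150). The cause of these changes was not tested.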
